A study of Mus musculus musculus x M. m. domesticus and Mus musculus musculus x Mus musculus castaneus and Mus musculus domesticus with 42 samples.

Results

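Transcript levels were compared between the testes of 2 wild-derived inbred house mouse subspecies, Mus musculus domesticus and M. m. musculus, the parents of one of the crosses of a larger series. The comparison used the 4 testis arrays that the labels assign to these parents, 2 domesticus males aged 45 days and 2 musculus males aged 47 days, out of 42 arrays in all. Each array held total RNA of 1 organ from 1 male, amplified, labelled with biotin and hybridised to an Affymetrix GeneChip that reads each transcript with 1 or more probe sets. The other testis arrays came from M. m. castaneus (47 days) and from 4 kinds of reciprocal F1 hybrids (50 to 54 days), and brain and liver were taken from the same males. All males were untreated animals of inbred lines or crosses between such lines, and each subspecies was represented by 2 males of a single age. Subspecies and the difference of 2 days in age therefore cannot be told apart, and 2 males per subspecies limit the precision of every value.

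The testis makes sperm in seminiferous tubules, where spermatogonia divide, spermatocytes go through meiosis and haploid spermatids build the acrosome, the flagellum and the protamine-packed nucleus. Sertoli cells support these germ cells from within the tubule, and Leydig cells between the tubules make testosterone. Domesticus and musculus diverged recently and meet in a natural hybrid zone, and hybrid males of some crosses between them are known to be sterile. The adult testis is also known for transcribing many genes and noncoding transcripts that are silent in other organs.

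The tissue label fitted the signals of germ cell markers on all 4 arrays. Prm1, which encodes a protamine of the sperm nucleus, had signals of 23127 and 23191 in domesticus males and 21014 and 28915 in musculus males. Ddx4, an RNA helicase of germ cells, had 9244 and 9452 in domesticus males and 9670 and 11279 in musculus males. Median signals per array were 132 and 134 in domesticus testis and 118 and 129 in musculus testis. Pearson's r over the tested probe sets, which are not independent replicates, was 0.978 between the domesticus males, 0.976 between the musculus males and 0.926 to 0.934 between males of different subspecies. The SD of the log2 difference was 0.363 between the domesticus males, 0.383 between the musculus males and 0.605 between the subspecies means. Of 5 tested Y-linked genes, which check the sex of the animals, none differed between the subspecies, and Eif2s3y had 1197 and 1153 in domesticus testis against 1432 and 1260 in musculus testis.

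Of the 27022 probe sets bright enough to be tested in testis, 3460 (12.8%) differed between domesticus and musculus at an adjusted p under 0.05 (limma, Benjamini-Hochberg adjustment over all tested probe sets). Among them, 1877 (6.95%) were higher and 1583 (5.86%) were lower in domesticus. They covered 2651 named genes, 1422 with a higher and 1276 with a lower probe set. A difference is given on the scale of log2(signal + 31), domesticus minus musculus, where the offset of 31 keeps dim signals from dominating. On this scale 1 unit is a doubling for bright transcripts and understates the change of dim ones. Most differences were moderate: 1050 of the higher and 723 of the lower probe sets differed by at least 1 unit, 251 and 155 by at least 2, and 29 and 13 by at least 4. The median difference of the higher probe sets was 1.07, that of the lower ones -0.94 and that of all tested probe sets 0.005, with a median SE of 0.227.

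The domesticus and musculus arrays did not overlap for any of the 3460 probe sets, but they also did not overlap for 53.9% of all tested probe sets. In 46 of the higher probe sets both musculus signals were at or under 31, and in 45 of the lower ones both domesticus signals were. Differences were not limited to such dim partners: 573 of the higher probe sets had a mean musculus signal of at least 500, and 600 of the lower ones a mean domesticus signal of at least 500. Without domesticus replicate 1 or 2, 2166 or 2039 probe sets passed the test, and without musculus replicate 1 or 2, 2212 or 2265 did, 7.55% to 8.38% of those tested. In each of these fits the genotype with 1 male left was assumed to vary like the others.

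**Figure D1:**
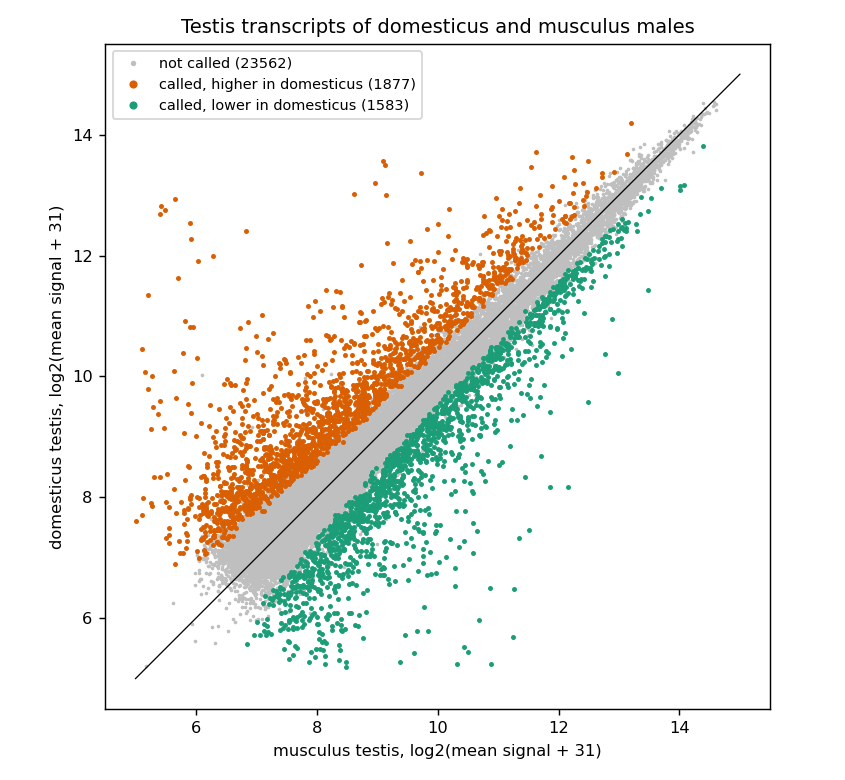
Each point is 1 of 27022 tested probe sets, with the mean testis signal of the 2 domesticus males on the vertical axis and that of the 2 musculus males on the horizontal axis, both as log2(mean signal + 31). Orange points were higher (1877) and green points lower (1583) in domesticus at an adjusted p under 0.05, grey points did not pass, and the black line marks equal signals.

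Many of the largest differences among probe sets without the suffix _x_at, which marks those that can match several similar transcripts, came from transcripts that were bright in testis of one subspecies and dim in the other. Of the 30 largest, 15 in each direction, 20 were read by 1 such probe set only, so that no other could be set beside it, and a part of sequence differences at the probes was not tested. Among the 15 largest higher in domesticus, 8 carry RIKEN clone names, which mark transcripts first known as cloned cDNAs, and no role is given for them here. The uncharacterised transcript 1700029F12Rik had 6599 and 5217 signal units in domesticus testis against 31 and 26 in musculus testis, a difference of 6.63 ± 0.186 (SE, limma adjusted p = 1.28e-10). Lpcat2b, a lysophospholipid acyltransferase, had 5368 and 4495 in domesticus against 46 and 13 in musculus (6.41 ± 0.263, adjusted p = 2.93e-09). In both genes the domesticus signals were far above those of either musculus male.

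Other transcripts were as sharply divided. Ttc30a2, a protein of the transport system that builds cilia and flagella, had 3125 and 3160 in domesticus against 7 and 35 in musculus (5.99 ± 0.246, adjusted p = 2.93e-09). The clone 4930584F24Rik had 3116 and 2059 in domesticus and 6 on both musculus arrays (6.12 ± 0.249). The clone 1700110I01Rik had 4399 and 3673 in domesticus against 42 and 52 in musculus (5.70), and 1700006J14Rik had 5451 and 5349 against 67 and 97 (5.60). The musculus signals of Ttc30a2 and 4930584F24Rik lay around or under the offset, so their true ratio could not be read from these arrays. The same holds for every other gene named here with signals around or under 31 in one subspecies, such as 1700029F12Rik (31 and 26 in musculus).

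Castaneus testis, which was not part of the test, was near domesticus for some of these transcripts and near musculus for others. It had 3185 and 3978 signal units for 1700029F12Rik and 3910 and 3468 for Lpcat2b, close to the domesticus signals. It had 54 and 51 for Ttc30a2, 7 and 18 for 4930584F24Rik and 109 and 91 for 1700006J14Rik, close to the musculus signals. For 1700110I01Rik, castaneus lay between the other 2 subspecies with 956 and 1284.

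Prps1l1, a testis form of the enzyme that makes phosphoribosyl pyrophosphate for nucleotide synthesis, was well expressed in both subspecies. It had 10832 and 7994 in domesticus against 480 and 452 in musculus (4.23 ± 0.190, adjusted p = 6.73e-09). Klk1b7-ps, a pseudogene of the tissue kallikrein protease cluster, had 628 and 1073 in domesticus against 7 and 5 in musculus (4.53). Galntl6, of the enzyme family that starts mucin-type glycosylation, had 1321 and 1280 in domesticus against 19 and 29 in musculus (4.60). The remaining large differences were those of 4930513N10Rik (4.92), 4931403G20Rik (4.75), 1700017G19Rik (4.47) and 4931428L18Rik (4.30), together with Dscaml1, an adhesion protein of neurons (4.93), and Caps2, a calcium-binding protein (4.19). Dscaml1, Caps2 and 4930513N10Rik were divided in this way by 1 of several probe sets. The others of 4930513N10Rik differed by 1.20 and 0.51, both past the test, with 3234 and 2716 in domesticus against 2122 and 2036 in musculus on the second. Those of 4931428L18Rik differed by 3.23 and by 0.48, the latter without passing. The 3 other Dscaml1 probe sets differed by -0.29, 0.47 and 1.42, of which only the last passed the test, and the other Caps2 probe set by 0.02.

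In the opposite direction, the largest differences came from transcripts that were bright in musculus testis and dim in domesticus testis. C8b, a subunit of the complement membrane attack complex, had 17 and 8 signal units in domesticus testis against 1582 and 1248 in musculus testis (-5.05, adjusted p = 2.93e-09). Cpn1, the catalytic subunit of the plasma enzyme carboxypeptidase N, had 14 and 16 in domesticus against 1307 and 1385 in musculus (-4.90 ± 0.185). H2-Bl, of the major histocompatibility complex (MHC) class I, had 170 and 118 in domesticus against 2992 and 2785 in musculus (-4.08 ± 0.264). None of the domesticus signals of these 3 genes came near the musculus signals.

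Stac, an adaptor protein of muscle and nerve, had 103 and 14 in domesticus against 2347 and 2482 in musculus (-4.98 ± 0.343). Its domesticus males differed from each other, but both were far below musculus. The predicted gene Gm30853 had 5 and 9 in domesticus against 2243 and 1480 in musculus (-5.61 ± 0.341, adjusted p = 1.51e-07). Castaneus testis was also low for Gm30853 (8 and 9), Stac (149 and 150), Cpn1 (32 and 45) and H2-Bl (129 and 49), and it lay between the others for C8b (387 and 408).

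The other transcripts in this group were those of Tti2, which helps to stabilise kinases of the DNA damage response (-4.37), the endolysosomal cation channel Tpcn1 (-4.10), the lysosomal membrane protein Scarb2 (-4.03), and Fkbp1b, an immunophilin that binds ryanodine receptors (-3.90). They also included Gm4961 (-3.86), the heme-binding protein Hebp2 (-3.69), 1700095A21Rik (-3.59), the cell surface glycoprotein Cd24a (-3.46) and the F-box protein Fbxw21 (-3.31). Scarb2 differed on 1 of its 2 probe sets, with 105 and 153 in domesticus against 2467 and 2656 in musculus, while its other probe set gave 576 and 697 in domesticus against 547 and 640 in musculus (0.09). Fbxw21 was dim, with 10 and 1 in domesticus against 340 and 316 in musculus, and its difference shrank to -2.02 with an offset of 100, still past the test.

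Cep112, which encodes a centrosomal protein, was the least certain of the 30 largest differences. It had 1511 and 29 in domesticus against 3183 and 2681 in musculus, so that the domesticus males disagreed more with each other than the first of them did with musculus. The difference was -3.28 ± 0.937 (adjusted p = 0.0345). It was -0.94 without domesticus replicate 2 (adjusted p = 0.0789) and -5.62 without domesticus replicate 1, and the gene was not called without either musculus replicate (-3.16 and -3.40) or when only the domesticus and musculus arrays were fitted (adjusted p = 0.121). The other Cep112 probe set, with 3559 and 1709 in domesticus against 4908 and 4112 in musculus, differed by -0.86.

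**Figure D2:**
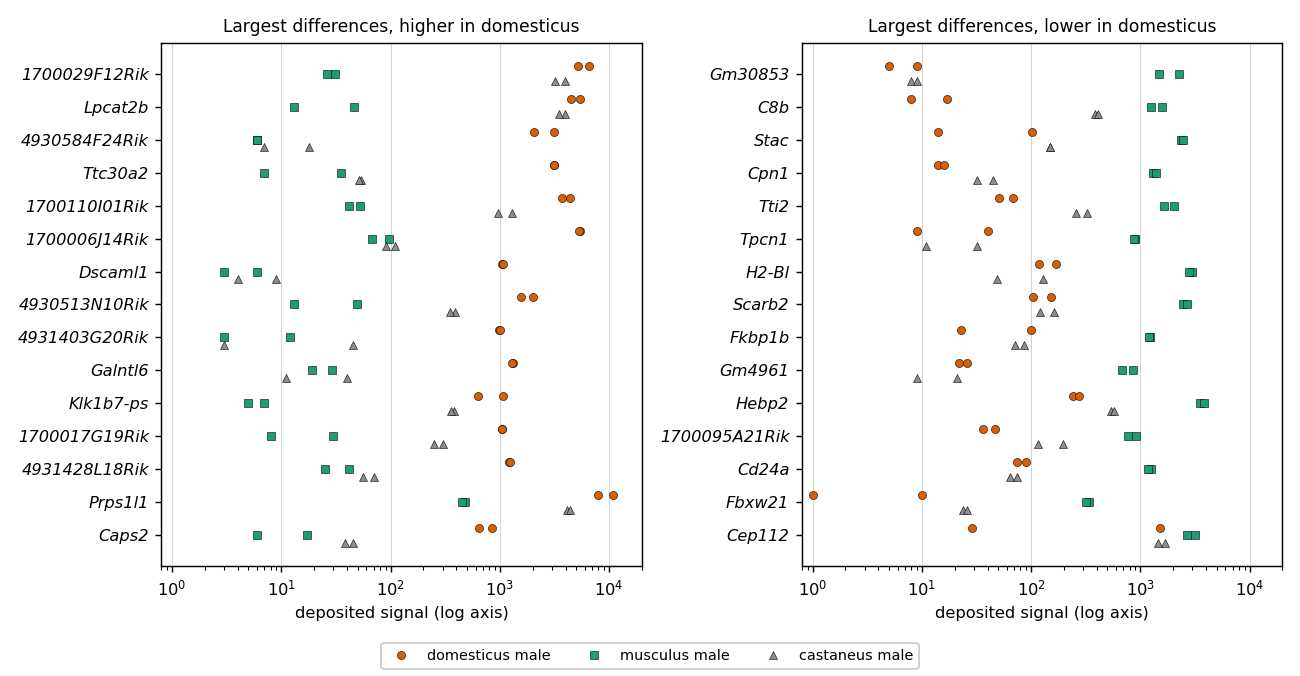
Deposited signals of single testis arrays on a log axis for the 15 largest differences higher in domesticus (left) and the 15 largest lower in domesticus (right), with domesticus as orange circles, musculus as green squares and castaneus as grey triangles, 2 males each. Domesticus and musculus signals do not overlap in any row, which the rule for naming genes required. The domesticus males lie far apart for Cep112 (1511 and 29) and, among dim signals, for Stac (103 and 14), Tpcn1 (9 and 40), Fkbp1b (23 and 99) and Fbxw21 (10 and 1). The castaneus males fall on the side of domesticus in some rows and on that of musculus in others.

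Genes read by several probe sets show how far a difference holds among them. Probe sets with the suffix _x_at were left out of these counts. Of 5189 genes with at least 2 tested probe sets, 1266 (24.4%) had at least 1 that differed between the subspecies. In 121 genes, 2.33% of the 5189, every probe set differed in 1 direction, 72 higher and 49 lower in domesticus. In 1101 genes only some probe sets differed, and in 44 genes probe sets differed in opposite directions. The 121 genes are 9.56% of the 1266 with a difference. Without domesticus replicate 1 or 2 the count was 63 or 56, and without musculus replicate 1 or 2 it was 63 or 59.

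The genes described here had the largest value on the probe set where they differed least, 10 in each direction. Oxct1, the mitochondrial enzyme that lets cells burn ketone bodies, was higher on 3 of 3 probe sets, by 1.76, 2.28 and 3.33. Its brightest had 3772 and 3561 in domesticus against 723 and 740 in musculus. Osgepl1, which modifies mitochondrial transfer RNA, was higher on 3 of 3 by 1.58 to 2.77, with 1685 and 1359 in domesticus against 177 and 235 in musculus on the one with the smallest p. Both genes thus kept a clear level in musculus testis.

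Ryr3, a calcium release channel of the endoplasmic reticulum, differed by 3.46 and 1.97, and Kcnip4, a calcium-binding subunit of potassium channels, by 2.76 and 2.56. Pou2f2, a transcription factor best known from B cells, differed by 2.70 and 2.71. The phosphatase Dusp19 had 1921 and 1862 in domesticus against 409 and 414 in musculus, and its probe sets differed by 2.12 and 2.20. Dusp18, of the same phosphatase family, differed by 1.47 and 1.74, the interferon-induced gene Ifi27 by 1.83 and 2.05, and the carboxylesterase Ces1d by 2.27 and 1.54. The adipocyte fatty acid binding protein Fabp4 differed by 2.66 and 2.19, and its domesticus males were unequal, with 404 and 1112 against 98 and 66 in musculus.

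Among the genes lower in domesticus on every probe set, Cd24a differed most by this measure. It had 75 and 90 in domesticus against 1256 and 1182 in musculus on one probe set and 113 and 94 against 1749 and 1271 on the other, differences of -3.46 and -3.50. Runx1t1, a transcriptional corepressor, was lower on 3 of 3 probe sets by -2.24 to -1.99, with 143 and 142 in domesticus against 840 and 744 in musculus. Zfpm2, a cofactor of GATA transcription factors in gonad development, had 387 and 360 in domesticus against 1243 and 1286 in musculus (-1.68, and -1.61 on its other probe set). Each domesticus male was lower than each musculus male on all of these probe sets, as on every probe set called lower.

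Igf2bp1, an RNA-binding protein, differed by -1.77 and -2.49, and Hebp2 by -3.69 and -2.11. Tpcn1 differed by -4.10 and -2.48, with 300 and 379 in domesticus against 1866 and 2202 in musculus on the second. Tbc1d9, of a family that regulates Rab GTPases, Adamtsl1, a secreted matrix protein, Mpped2, a metallophosphoesterase, and Kcnab1, a potassium channel subunit, differed by -2.27 to -1.39 on 2 probe sets each. Tti2 came close to this group: 4 of its 5 probe sets were lower, by -4.37 to -2.18, and the fifth differed by -0.27 without passing the test.

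**Figure D3:**
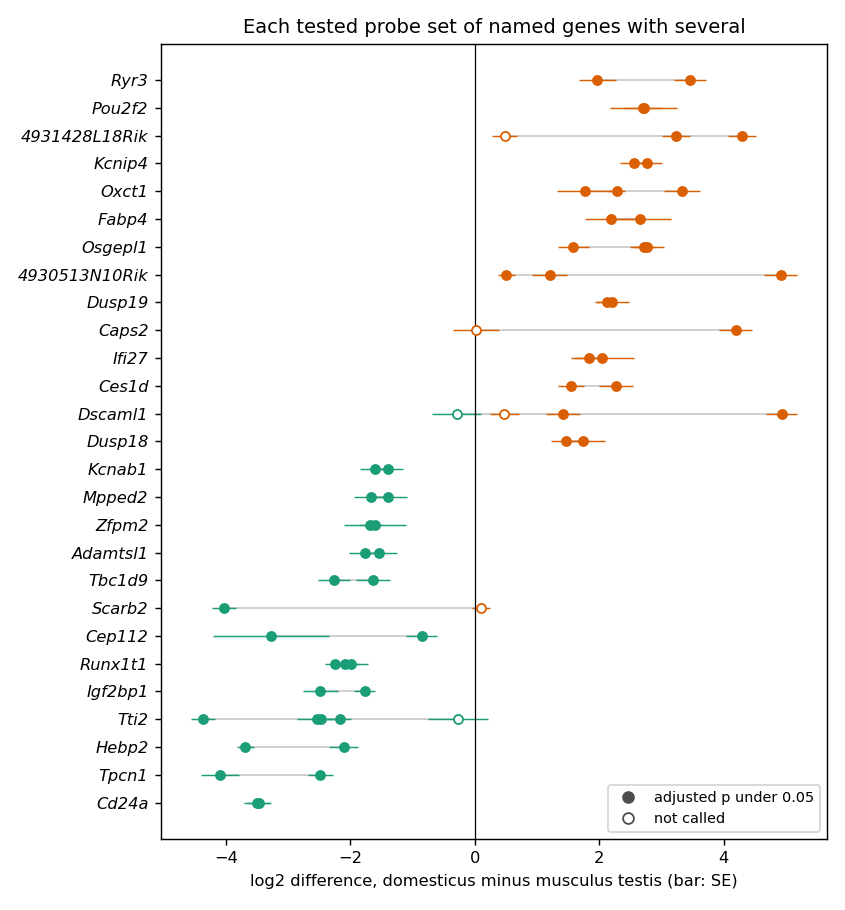
Each point is 1 tested probe set of a gene named for its size or for the agreement of its probe sets, with the log2 difference of domesticus minus musculus testis on the horizontal axis and bars of 1 SE. Filled points passed an adjusted p under 0.05 and open points did not, orange lies above 0 and green below. The probe sets of Cd24a, Runx1t1, Kcnip4 and Dusp19 lie close together, while those of Scarb2, Caps2 and Dscaml1 spread from a large difference to near 0.

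Gene lists for the cell types and functions of the testis were then read 1 probe set per gene, the brightest in testis. The background was 2034 of 13993 genes called (14.5%, 7.41% higher and 7.12% lower in domesticus), with a median difference of -0.006. The share called was 50% for epididymis (6 tested), 40% for MHC class I (10), and 33.3% for Leydig cells (12), kallikreins (6) and adipocytes (6). It was 26.7% for ADAM proteins (15), 22.2% for the piRNA pathway (18) and 20.8% for glutathione transferases and carboxylesterases (24). The flagellum had 19.5% (41) and meiosis 16.7% (30). In the other lists it was under the background, at 0% to 14.3%, and no list was tested as a whole. In whole testis, fewer cells of a type and less RNA per cell cannot be told apart. Of the 59 list members called, 27 stayed called when any 1 of the 4 arrays was left out, and those that did not are named as such. Probe sets of a gene did not always agree: 7 of the genes not called had another probe set that was, and 7 of the 17 called genes with another probe set had one of the opposite sign.

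Leydig cell genes went both ways. Of 12 tested, 3 were higher and 1 was lower in domesticus, with a median of 0.26. Agt, the angiotensin precursor, had 609 and 655 in domesticus against 8 and 13 in musculus (4.0 ± 0.366, adjusted p = 6.58e-06). Cyp17a1, which makes androgen precursors, had 5329 and 5903 in domesticus against 1953 and 2443 in musculus (1.35 ± 0.181, adjusted p = 0.00019). Hsd3b1, which acts beside it in steroid synthesis, was lower, with 1025 and 769 in domesticus against 2042 and 1675 in musculus (-1.03 ± 0.166).

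Ptgds, a prostaglandin D synthase, had 2753 and 2805 in domesticus against 1234 and 1207 in musculus (1.17), and was not called when any 1 of the 4 arrays was left out (1.15 to 1.18). The other Leydig cell genes did not pass. Star, the carrier that brings cholesterol into mitochondria, had 388 and 592 in domesticus against 400 and 769 in musculus. Cyp11a1, which makes the first cut, had 1271 and 1704 in domesticus against 889 and 1029 in musculus. Of 6 tested testis kallikreins, secreted proteases, 2 were higher in domesticus and none lower. With an offset of 100, or with no filter on low values, 4 kallikreins were called. Klk1b24 had 479 and 911 in domesticus against 64 and 92 in musculus (2.68 ± 0.426), and Klk1b21 had 416 and 993 against 92 and 79 (2.54), a call lost without domesticus replicate 2 (1.94). In both, domesticus male 2 had the higher signal of the domesticus males, as it did for Klk1b7-ps.

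Of 23 tested Sertoli cell genes, 3 were lower in domesticus and none higher (median 0.01). Espn, an actin-bundling protein of the junctions between Sertoli cells and spermatids, had 194 and 155 in domesticus against 560 and 534 in musculus (-1.50 ± 0.249). Inhba, a subunit of activins and inhibins, had 61 and 59 against 291 and 219 (-1.64), and Sox9, the transcription factor of Sertoli cell identity, had 197 and 258 against 364 and 415 (-0.71, and -0.04 on its other probe set). The calls of Inhba were lost without either domesticus replicate or without musculus replicate 1 (-1.66, -1.62 and -1.46), and those of Sox9 without domesticus replicate 1 or either musculus replicate (-0.54, -0.80 and -0.62). The other Sertoli cell markers did not differ past the test: Clu, a secreted chaperone, had 9399 and 9813 in domesticus against 7060 and 9408 in musculus, and Wt1, a transcription factor, had 499 and 709 against 774 and 817. None of 9 peritubular myoid cell genes passed, the contractile cells around the tubule. Acta2, smooth muscle actin, had 2316 and 2406 in domesticus against 3189 and 2992 in musculus.

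The mitotic germ cells showed 1 difference among 22 tested spermatogonial genes. Lhx1, a transcription factor of undifferentiated spermatogonia, had 238 and 184 in domesticus against 15 and 14 in musculus (2.40 ± 0.323, adjusted p = 0.000196), and 1.44 with an offset of 100. The count was 2 without domesticus replicate 2 or without musculus replicate 1, and 0 with a filter at the 60th percentile. Ret, a receptor of the same stem cells, had 227 and 249 in domesticus against 220 and 215 in musculus and did not pass. The probe sets of Etv5, a transcription factor of these cells, disagreed: the brightest had 474 and 450 in domesticus against 361 and 331 in musculus without passing, while another had 201 and 157 against 523 and 524 (-1.41, adjusted p = 0.00134). Id4 was not called on its brightest probe set (-0.45), but 1 of its 2 others (-0.48 and -0.27) was. The germ cell RNA-binding protein Dazl had 4044 and 2834 in domesticus against 4818 and 3013 in musculus.

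Of 30 tested genes of meiotic synapsis and recombination, 1 was higher and 4 were lower in domesticus (16.7% called, against 14.5% of all genes, median -0.01). Mei1, which is needed for meiotic DNA breaks, had 192 and 245 in domesticus against 741 and 702 in musculus (-1.60 ± 0.193, adjusted p = 7.52e-05). Trip13, an ATPase that acts on chromosome axes, had 255 and 300 in domesticus against 661 and 565 in musculus (-1.06 ± 0.180), while its other probe set differed by 0.35 without a call. Prdm9, the histone methyltransferase that places recombination hotspots, had 108 and 168 in domesticus against 223 and 357 in musculus (-0.92 ± 0.254, adjusted p = 0.0296). The groups did not overlap for Prdm9, as for every called probe set, but its call was lost without domesticus replicate 1 (-0.66) or musculus replicate 2 (-0.61).

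Majin, which tethers telomeres to the nuclear envelope, was lower by -0.54, a call lost without either domesticus replicate (-0.58 and -0.50) and without musculus replicate 1 (-0.35). The mismatch repair protein Msh5, which acts in crossovers, was higher by 0.58, a call lost when any 1 of the 4 arrays was left out (0.54 to 0.62). Psmc3ip and Dmc1 were not called on their brightest probe sets (0.53 and 0.68), but each had another called higher (1.59 and 0.70). The count of calls in this list leaves these out. The structural genes of the synaptonemal complex, Sycp1, Sycp2, Sycp3, Syce1, Syce2 and Syce3, differed by -0.10 to 0.12 and none passed. Sycp3 had 8885 and 10266 in domesticus against 9629 and 10853 in musculus.

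Of 18 tested genes of the piRNA pathway, which silences transposons in the male germline, 1 was higher and 3 were lower. Rnf17, a Tudor domain protein of spermatids, had 3987 and 3593 in domesticus against 1781 and 1596 in musculus (1.15 ± 0.127, adjusted p = 3.48e-05), while its 3 other probe sets ranged from -0.15 to 1.31 with 1 called. Tdrd5, of the same domain family, had 1349 and 1127 in domesticus against 2291 and 1939 in musculus (-0.76), a call lost without domesticus replicate 2 (-0.63). The Argonaute protein Piwil1 (-0.49) and the helicase Mov10l1 (-0.48) were lower, with calls that were lost when any 1 of the 4 arrays was left out (-0.55 to -0.42 and -0.54 to -0.41).

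The abundant protamine and transition protein transcripts of late spermatids were nearly level. Of 12 tested genes of sperm chromatin packaging, only Chd5, a chromatin remodeller, passed (-0.72, lost when any 1 of the 4 arrays was left out, -0.88 to -0.57). Prm1, Prm2, Tnp1 and Tnp2, the protamines and transition proteins, differed by -0.18 to -0.02. None of 9 X-linked spermatid genes passed on its brightest probe set, and 1 did without musculus replicate 1. Akap4, the main scaffold of the fibrous sheath, had 13948 and 12738 in domesticus against 12188 and 13892 in musculus on the probe set used for the list. A second Akap4 probe set was higher, with 18686 and 18834 in domesticus against 9089 and 9546 in musculus (1.01 ± 0.129, adjusted p = 0.000126).

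Among 31 tested genes of the acrosome and of egg binding, 1 was higher and 1 lower. Glipr1l1, a sperm surface protein, had 5777 and 5616 in domesticus against 3636 and 2859 in musculus (0.81 ± 0.151), a call lost after median centring of the arrays. Spata16, a Golgi protein of acrosome formation, had 2725 and 2432 in domesticus against 4621 and 4188 in musculus (-0.77 ± 0.129), while its other probe set differed by 0.26 without a call. Izumo1, the sperm protein that binds the egg, had 3275 and 3008 in domesticus against 4471 and 4042 in musculus (-0.43, adjusted p = 0.0726). Proacrosin, encoded by Acr, had 5416 and 5494 against 6080 and 6128.

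Of 15 tested ADAM proteins of testis, membrane proteins that include fertility factors of the sperm surface, 4 were higher in domesticus and none lower (26.7%, median 0.24). Adam26a had 1417 and 1337 in domesticus against 582 and 513 in musculus (1.29 ± 0.234), and Adam6b had 591 and 603 against 264 and 218 (1.21 ± 0.203). Adam2, a subunit of fertilin, was higher by 0.49 and Adam6a by 0.45, and neither was called when any 1 of the 4 arrays was left out (0.39 to 0.60 and 0.41 to 0.50) or after median centring of the arrays. In each of these leave-one-out fits 2 ADAM genes were called.

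Of 41 tested genes of the sperm flagellum, 6 were higher and 2 were lower in domesticus (19.5%, median 0.008). Among the higher ones, 3 form a family that acts in transport along the flagellum: beside Ttc30a2 (5.99), Ttc30a1 had 1151 and 1265 in domesticus against 540 and 583 in musculus (1.06 ± 0.143, adjusted p = 0.000191). Ttc30b had 370 and 317 in domesticus against 179 and 162 in musculus (0.89), a call lost without domesticus replicate 1 (0.79) or musculus replicate 2 (0.83). These are close paralogs, and signal shared between them was not tested. In castaneus, as in musculus and unlike domesticus, Ttc30a2 was dimmer than Ttc30a1, with castaneus signals of 54 and 51 against 1585 and 1548.

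Armc2, needed for the sperm axoneme, was higher by 1.05, a call lost without domesticus replicate 2 (0.98) or musculus replicate 1 (0.92). The axonemal proteins Dnah2 (0.60, and -0.53 without a call on its other probe set) and Spag16 (0.52) were higher and the intraflagellar transport protein Ift88 (-0.54) and the radial spoke protein Rsph1 (-0.58) lower. The call of Dnah2 was lost without either domesticus replicate (0.63 and 0.57) or musculus replicate 1 (0.43), and that of Ift88 without domesticus replicate 1 (-0.43) or either musculus replicate (-0.58 and -0.49). Those of Spag16 and Rsph1 were lost when any 1 of the 4 arrays was left out (0.44 to 0.61 and -0.65 to -0.52). In each of these fits 3 or 4 flagellar genes were called. The outer dense fibre protein Odf1 had 17306 and 16696 in domesticus against 16006 and 20258 in musculus.

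In sperm energy metabolism, 1 of 25 tested genes was higher and 2 were lower. Aldoart1, a spermatid form of the glycolytic enzyme aldolase, had 3977 and 3813 in domesticus against 1450 and 1367 in musculus (1.45 ± 0.241). Eno4, an enolase of the flagellum, had 1147 and 975 in domesticus against 2623 and 2523 in musculus (-1.26 ± 0.124, adjusted p = 1.33e-05), and -0.36 on its other probe set. Cox6b2, a testis subunit of cytochrome c oxidase, had 9070 and 9028 in domesticus against 14879 and 17970 in musculus (-0.85), a call lost without musculus replicate 2 (-0.72). Ldhc, the sperm lactate dehydrogenase, had 23900 and 23796 in domesticus against 21516 and 27094 in musculus. Of 20 tested sperm ion channel and kinase genes, Catsper2, a subunit of the sperm calcium channel, was higher by 0.46 and Slc36a3, a transporter, lower by -0.47. Both calls were lost when any 1 of the 4 arrays was left out (0.38 to 0.54 and -0.56 to -0.38). Slc26a8 was not called on its brightest probe set (-0.17), but its other was called lower (-0.99).

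MHC class I and antigen processing had 1 higher and 3 lower of 10 tested genes (40%). Without H2-K1 and H2-D1, whose probe sets went in both directions, 1 was higher and 2 were lower of 8. Beside H2-Bl, Nlrc5, the transcriptional activator of class I genes, had 72 and 71 in domesticus against 246 and 283 in musculus (-1.52 ± 0.233, adjusted p = 0.000569). B2m, the shared light chain of class I molecules, had 1913 and 2353 in domesticus against 1977 and 2179 in musculus (0.03). Tapbp, which loads peptides on class I, was higher by 0.59 (-0.15 without a call on its other probe set), a call lost without domesticus replicate 1 (0.51).

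H2-K1 was read only by probe sets of the kind that can match several similar transcripts, and these disagreed. The brightest had 340 and 423 in domesticus against 3265 and 3371 in musculus (-3.03), another had 1796 and 1994 against 20 and 31 (5.10), and another had 8 and 16 against 801 and 699 (-4.19). The fourth had 1986 and 2018 against 1584 and 1256 (0.50) and did not pass. Class I genes are polymorphic and close in sequence, and the direction of H2-K1 therefore cannot be given from these arrays. H2-Bl, of the same class, was read by a single probe set without the suffix _x_at, so its direction could not be checked on another. Signal shared with other class I transcripts was not tested.

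Interferon response genes showed little joint movement: of 21 tested, Ifi27 was higher and Xaf1 and Dhx58 were lower in domesticus. Ifi27 had 711 and 793 in domesticus against 188 and 190 in musculus. Xaf1, an interferon-induced factor, differed by -1.13, a call lost without domesticus replicate 1 (-0.98) or musculus replicate 1 (-0.92). Dhx58, a sensor of viral RNA, differed by -0.51 (-0.65 and 0.06 without a call on its other probe sets), a call lost when any 1 of the 4 arrays was left out (-0.58 to -0.44).

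Markers of other cell types were examined in the same way. Of 16 tested macrophage and leukocyte genes, Lyz2, lysozyme, was higher, with 891 and 772 in domesticus against 295 and 266 in musculus (1.47 ± 0.252). The receptor Csf1r had 664 and 711 in domesticus against 641 and 624 in musculus, and the surface protein Adgre1 had 345 and 403 against 419 and 451. Aif1 made up most of the summed signal of the list, and without it the sum was 6077 and 6180 in domesticus against 5279 and 5096 in musculus. Of 10 tested endothelial genes, only Vwf, von Willebrand factor, was lower, with 240 and 238 in domesticus against 1670 and 1327 in musculus (-2.49 ± 0.180, adjusted p = 7.37e-07). The endothelial adhesion protein Cdh5 had 185 and 181 in domesticus against 151 and 160 in musculus, and neither of 2 tested red blood cell genes passed.

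Of 6 tested epididymal genes, 3 were higher in domesticus, Rnase10 (1.49), Ces5a (1.22) and Npc2 (0.56, with -0.39 and 0.48 on its other probe sets). Rnase10 had 233 and 240 in domesticus against 57 and 72 in musculus. Ces5a was not called without domesticus replicate 1 (0.93) or either musculus replicate (1.26 and 1.18), and Npc2 not without domesticus replicate 2 (0.42) or musculus replicate 2 (0.47). The summed signal of the list was 3812 and 3688 in domesticus against 2768 and 2589 in musculus, of which Npc2 made up 2192 and 2660 in domesticus against 1740 and 1523 in musculus. Defining epididymal genes were dim in both subspecies, with 13 and 17 in domesticus against 22 and 16 in musculus for Lcn5, 56 and 11 against 4 and 8 for Adam7, and 66 and 73 against 32 and 39 for Gpx5.

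Of 6 tested adipocyte genes, 2 were higher in domesticus. Fabp4 had 465 and 878 in domesticus against 94 and 142 in musculus on its brightest probe set, a call lost without domesticus replicate 2 (1.75). Car3, a carbonic anhydrase of fat and muscle, had 492 and 970 in domesticus against 273 and 158 in musculus (1.59). This call was lost without domesticus replicate 2 (1.13) or musculus replicate 2 (1.25), and the other Car3 probe set differed by 0.57 without a call. The summed signal of the list was 2580 and 3887 in domesticus against 1781 and 1856 in musculus, and Adipoq, the fat hormone adiponectin, had 875 and 1067 against 904 and 805. Domesticus male 2 was the higher one for both Fabp4 and Car3, as for Klk1b24, Klk1b21 and Klk1b7-ps but not for every kallikrein. The part of adipose tissue in these results was not tested.

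Among 24 tested glutathione transferases and carboxylesterases, enzymes that conjugate or hydrolyse lipids and foreign compounds, 4 were higher and 1 was lower. Gstm2 had 4934 and 5602 in domesticus against 1776 and 1742 in musculus (1.56 ± 0.143, adjusted p = 6.64e-06), and Gstm1 had 4597 and 4991 against 2228 and 2658 (0.97 ± 0.154). Gstt1 was higher by 1.01 and Gsta2 lower by -0.97, calls lost without domesticus replicate 2 (0.94) and without domesticus replicate 1 (-0.74). Gstm5, the brightest of the family in testis, had 21489 and 20708 in domesticus against 19214 and 25589 in musculus. The mu-class genes are close in sequence, and signal shared between them was not tested. Of 14 immediate early genes, which respond to handling and stress, Nr4a1 was lower by -0.80. That call was lost without domesticus replicate 1 (-0.73) or musculus replicate 2 (-0.71). Egr3 was not called on its brightest probe set (-0.80), but its other was called lower (-0.88).

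**Figure D4:**
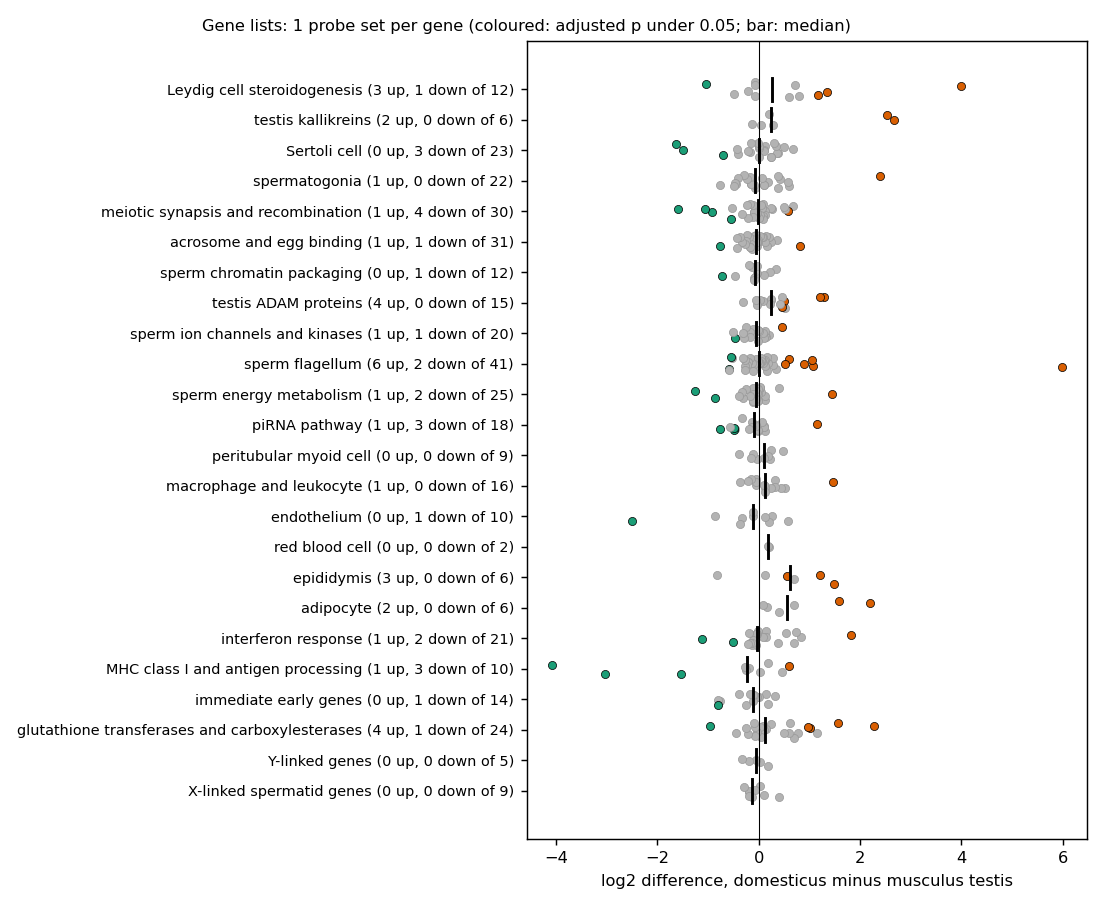
Each point is 1 gene, read by its brightest testis probe set, with the log2 difference of domesticus minus musculus testis on the horizontal axis and 1 row per gene list. Orange points were higher and green points lower in domesticus at an adjusted p under 0.05, grey points did not pass, and black bars are list medians. Most genes of every germ cell list lie within 1 unit of 0, and the points farthest out are Ttc30a2 (5.99), Agt (4.0) and H2-Bl (-4.08).

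The same males gave brain and liver, so each testis difference could be set against those organs. The difference in testis departed from the mean of the differences in brain and liver for 2397 probe sets (8.87% of 27022, limma with the animal as a block), 1457 upward and 940 downward. Of the 3460 probe sets that differed in testis, 1531 (44.2%) were among them. Both counts use the same testis arrays, so this share is a description.

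Of the 47 genes named for their size or for the agreement of their probe sets, 43 passed this test, and they had been chosen for their testis differences. For some of them the differences in brain and liver were near 0. Probe sets were kept by their testis signal only, so a transcript absent from an organ also gives a difference near 0 there. Brain and liver signals are not given here, and absence and equal levels were not told apart. The testis difference of 1700029F12Rik (6.63) stood beside -0.13 in brain and -0.28 in liver, that of Lpcat2b (6.41) beside 0.28 and 0.03, and that of Gm30853 (-5.61) beside -0.02 and 0.04. Cd24a differed by -3.46 in testis, 0.18 in brain and -0.06 in liver.

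C8b and H2-Bl turned the other way in liver, where C8b was at 1.01 and H2-Bl at 2.26, against -5.05 and -4.08 in testis. Tti2 and Hebp2 kept their direction, with -1.21 and -0.56 in brain and -0.83 and -1.84 in liver, and both still departed from the other organs (dependence on tissue -3.35 ± 0.337 and -2.49 ± 0.484). Osgepl1 was also higher in domesticus in brain (0.80) and liver (1.31), and Oxct1 was at 0.99 and 1.18. For Oxct1 the testis difference exceeded their mean by 1.19 ± 0.309 (adjusted p = 0.0122).

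The other 4 genes did not pass. Dusp19 was higher in domesticus by 2.12 in testis, 1.30 in brain and 1.95 in liver, a departure of 0.50 ± 0.297 (adjusted p = 0.356). Ifi27 was at 1.83 in testis, 2.19 in brain and 3.40 in liver, a departure of -0.97 ± 0.415 (adjusted p = 0.161). Dusp18 was at 1.47 in testis and 1.96 in brain but at 0.01 in liver, a departure of 0.49 ± 0.399 from the mean of both. Adamtsl1, at -1.76 in testis, -0.50 in brain and -0.25 in liver, departed by -1.38 ± 0.453 (adjusted p = 0.0533) and passed under 4 of the alternatives. The differences within brain or liver carry no test of their own here.

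**Figure D5:**
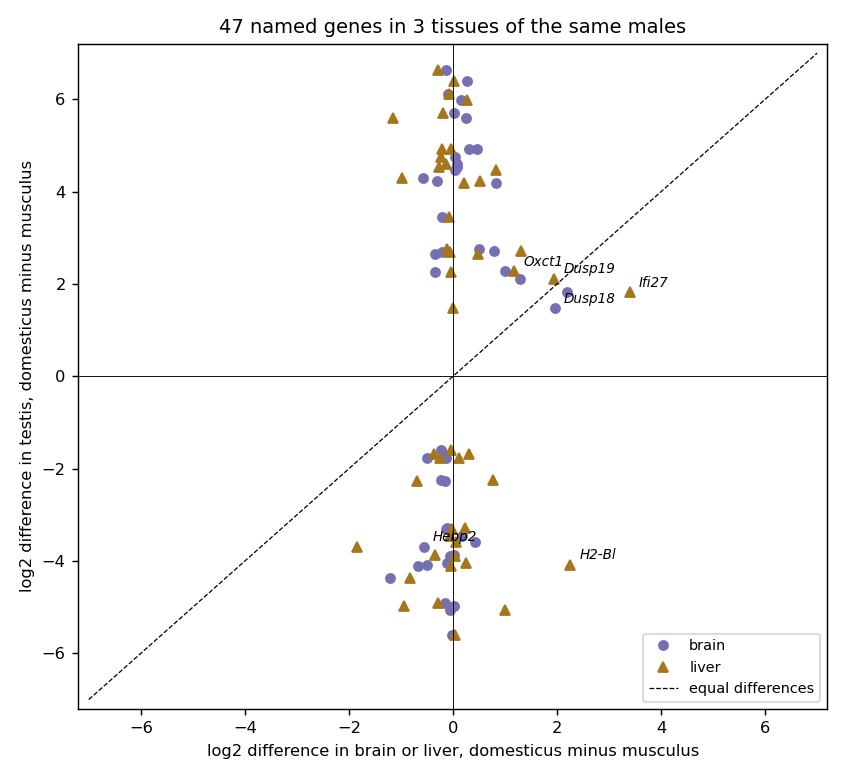
Each named gene is drawn by its log2 difference of domesticus minus musculus in testis (vertical axis) against the same difference in brain (purple circles) and liver (brown triangles) of the same males, and the dashed line marks equal differences. Most points lie near 0 on the horizontal axis at large testis differences, Dusp19 and Ifi27 lie near the dashed line, and H2-Bl lies at -4.08 in testis and 2.26 in liver.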

How the data were processed

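The authors deposited a linear intensity for each probe set on each array. The submitters' processing notes name MAS5, but the sources used here do not give its version, settings or detection calls. Trimmed by 2% at each end, the means of the 4 testis arrays were 498.1 to 498.33, so each array had been brought to a common level near 500. Scaling does not remove differences in the shape of the distribution, and a probe that mismatches the sequence of a subspecies can read low at an equal amount of transcript. All samples with a group were used.

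Symbols came from the platform annotation: of 45037 probe sets, 34945 had 1 symbol, 932 several and 9160 none. Only those with 1 symbol were named. No sequence or chromosome annotation was used.

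Signals were taken as log2(signal + 31), 31 being the 20th percentile of all values. The test covered probe sets whose mean over the 14 testis arrays reached the 40th percentile (mean signal 84.3). The fit used limma 3.58.1 in R 4.3.3 (lmFit, eBayes with an intensity trend) over the 14 testis arrays with genotype as the factor (7 levels, 7 residual degrees of freedom), with Benjamini-Hochberg adjustment. Dependence on tissue was fitted on all 42 arrays with the animal, from genotype and male number in the labels, as a random block (estimated correlation 0.245). All tests are two-sided. The scripts were tested on simulated data. The labels call the replicates separate males.

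Male numbers 1 and 2 were checked for pairing: the deviations of same-numbered males correlated by 0.188 between domesticus and musculus, and in 10 of 21 pairs of genotypes over 0.1 (-0.39 to 0.306), so the numbers were not taken to pair animals.

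Genes were named by these rules: 1 symbol, no suffix _x_at, adjusted p under 0.05 and no overlap of arrays, taking the probe set with the smallest p; then the 15 largest differences per direction, the 10 per direction with the largest smallest difference among genes with every probe set called, up to 4 called members per list and direction with uncalled ones as contrast, and the largest and smallest dependence on tissue. H2-K1 has only _x_at probe sets and was shown as an exception. The signals of the germ cell marker Prm1 also came from an _x_at probe set. The genes, lists and tests were chosen with earlier results of these data known. Alternatives changed the offset, filter, normalization, samples, variance trend and blocks, and left out each array.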

Additional observations from a re-analysis of the deposited data

Results flagged for a closer look

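The differences below were singled out because the testis difference of domesticus minus musculus departed from the mean difference in brain and liver of the same males, by the test of that departure itself. The departures were 6.83 for 1700029F12Rik, 6.25 for Lpcat2b, 6.20 for 4930584F24Rik, 6.05 for 1700006J14Rik, 5.78 for 1700110I01Rik and 5.77 for Ttc30a2, the 6 largest among the named genes, with adjusted p from 2.41e-17 to 9.84e-11. Brain differences of these 6 genes lay between -0.13 and 0.28 and liver differences between -1.16 and 0.26. Whether these transcripts are present in brain or liver at all was not tested. At the other end, Oxct1 departed by 1.19 (adjusted p = 0.0122) and Mpped2 by -1.40 (adjusted p = 0.00369). The call of Oxct1 was lost without domesticus replicate 1 (0.96) and without musculus replicate 2 (0.94), and that of Mpped2 without domesticus replicate 2 (-1.27) and without musculus replicate 2 (-1.30). Oxct1 was also not called when only the domesticus and musculus arrays were fitted (adjusted p = 0.0546).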

How the results depend on the processing

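Leaving out 1 array at a time gave 2039 to 2265 differing probe sets (3460 with all arrays), 1069 to 1330 higher, 935 to 989 lower, 56 to 63 genes called by every probe set (121 with all) and 1443 to 1520 dependent on tissue (2397 with all). Without the animal block, 1505 depended on tissue. These fits use fewer samples or ignore that organs came from the same male. The replicate block, with male number 1 or 2 as a term, gave 3495 calls, and among the genes named it ended those of Msh5, Chd5 and Rsph1. The other settings gave 2802 (60th percentile filter) to 3715 (quantile normalization), and the share of higher calls was 54.2% in the main setting and 46.4% after median centring. Of 598 values of the 47 genes named for size or agreement, 592 kept their call and direction, 6 lost the call, all of Cep112, and 0 reversed. Settings in which a gene fell under the filter give no value. The genes had been chosen for their size or agreement in the main setting, so these counts do not speak for the other calls. Of the calls of named genes and list members, median centring ended 16 and kept 86. Signals at or under 31 have no order, which limits the dimmest differences to a lower bound.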

Other observations

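These observations were chosen after the values were seen and are descriptions with no test of their own. By symbol, 216 of 786 genes with RIKEN clone names differed between domesticus and musculus testis (27.5%), 145 higher and 71 lower in domesticus, and 24% of 200 predicted genes with a Gm name did, 32 higher and 16 lower, where the share over all genes was 14.5%. The shares were 9.52% of 42 cytosolic ribosomal protein genes, 10.7% of 252 solute carriers and 13.9% of 36 proteasome subunits, and 29.7% of 37 tetratricopeptide genes named Ttc and 17% of 106 coiled-coil genes named Ccdc. Of 21 Spata genes, named for their part in spermatogenesis, 1 was called, and of 34 Tex genes, named for testis expression, 4 were.

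The largest differences of the whole table came from probe sets with the suffix _x_at, which can match several similar transcripts. The rule for naming genes left these out, with H2-K1 shown above as an exception. Of 42 probe sets that differed by at least 4 units, 15 carried this suffix. Rpn1, a ribophorin of the endoplasmic reticulum, had 3 such probe sets with 6310 to 8402 in domesticus against 4 to 27 in musculus (7.28, 7.29 and 7.42), while its 2 others, 1 of them also with the suffix, were level at 3596 and 4004 against 3369 and 3852 (0.07) and at 2793 and 3200 against 3352 and 2798 (-0.03). Srp14, of the signal recognition particle, had 11535 and 12540 in domesticus against 393 and 635 in musculus on 1 probe set (4.5) and differences of -0.20 to -0.11 on its 3 others. Mff, a factor of mitochondrial fission, and Gsn, the actin-severing protein gelsolin, ranged from 0.72 to 4.38 and from 0.14 to 4.11. In Ttc30a2 and Oxct1 the _x_at probe set (5.88 and 4.04) stood beside others that also differed. Of 7 tested H2-D1 probe sets, 3 were higher in domesticus (3.45 to 5.34), 3 were lower (-3.41 to -2.47) and 1 differed by 0.18.

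Other genes also gave called probe sets in opposite directions. Clec4g, a lectin, had 650 and 457 in domesticus against 242 and 148 in musculus on one probe set (1.38) and 337 and 367 against 2058 and 2159 on the other (-2.48). Mttp, which loads lipids on lipoproteins, gave 1.44 and -2.03, and Tmem41b, a lipid scramblase, gave 1.33 and -1.55. Which transcript each probe set reads was not examined here.

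The share of probe sets that differed varied with signal. Divided into 4 groups of equal size by mean signal, 6.97% of tested probe sets in the dimmest group differed, 12% in the next, 17.4% in the one after and 14.9% in the brightest.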
